A study of Homo sapiens with 8 samples.

Results

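Cohesin is a ring of proteins that holds DNA in loops. NIPBL loads it onto chromatin, SMC1A is one of its ring subunits, and MED1 belongs to Mediator, which passes signals from enhancer-bound transcription factors to RNA polymerase II. Mediator and NIPBL are known to meet at active enhancers and promoters, whereas the strongest cohesin peaks of a cell usually lie at sites of the insulator protein CTCF. Regions where all 3 proteins give a peak are therefore places where the loader, the ring and the transcription machinery can be compared within the same region.

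The regions described here were chosen by peak presence and MED1 peak width. Overlapping peaks of all 6 ChIP-seq lists on chromosomes 1 to 22 and X were merged into 92867 regions. A region was kept if each of the 6 lists had a peak in it and if no MED1 peak in it was wider than 2000 bp, which left 4412 compact regions, or 4.75% of all merged regions. Another 883 regions held all 6 lists with a wider MED1 peak, so that compact regions made up 83.3% of the 5295 regions with every list. The libraries came from untreated GM12878 cells, an established lymphoblastoid line that was grown out of the B lymphocytes of 1 donor with Epstein-Barr virus. There were 2 libraries each for NIPBL, SMC1A and MED1, and 2 whole cell extract libraries without antibody, which were pooled as the control of every list. The labels do not tell whether the replicates were separate cultures, so their spread may be technical. Lists ran from 15357 peaks (NIPBL replicate 2) to 68228 (SMC1A replicate 2). Positions are 1-based on hg19. No sequence or gene annotation of that build entered the work, so each region is given by its coordinates alone, and markers of the cell type were not examined.

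Compact regions were single, narrow sites in most cases. Their widths ran from 322 to 5190 bp, with a median of 956 bp and quartiles of 693 and 1330 bp. In 2945 of them (66.7%) each list gave exactly 1 peak, and 279 (6.32%) held 10 or more peaks in all. A base covered by all 6 lists at once was present in 4078 regions (92.4%), where this shared core had a median of 261 bp. In the other 334 regions the lists were joined only through a chain of overlaps. The peaks of MED1 replicate 2 were the widest, with a median of 832 bp, against 423 bp for MED1 replicate 1, 490 and 397 bp for NIPBL and 410.5 and 519 bp for SMC1A (replicates 1 and 2). The MED1 replicate 2 peak was the wider of the MED1 pair in 4344 regions (98.5%). It wholly contained the strongest NIPBL peak in 66.4% and 81.5% of regions and the strongest SMC1A peak in 72.4% and 61.9% (partner replicates 1 and 2). A single library thus covered most of what the others marked. The width limit fell within a continuous range. The 3 regions just inside it had widest MED1 peaks of 1997, 1995 and 1993 bp, and the 3 just outside had 2002, 2003 and 2005 bp.

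Fold enrichment, the ratio of ChIP signal to the local control estimate at the summit, is the authors' value for a peak and is used here to describe and rank peaks. Where a list had several peaks in a region, the one with the highest fold enrichment was taken. The values below stem from the same peak lists that chose the regions and are given as a description, with no test. For NIPBL the median over the 4412 regions was 4.73 in replicate 1 and 4.60 in replicate 2, against 3.88 and 4.08 over the whole lists. For MED1 it was 4.53 and 9.46, against 3.81 and 4.82. For SMC1A it was 4.37 and 5.32, which lay below the medians of 8.61 and 7.53 over the whole SMC1A lists. Regions with all 3 proteins were thus above the middle of their lists for NIPBL and MED1 and below it for SMC1A, in both replicates of each.

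Ranks within each list show the same contrast, though the lists differ in length and a percentile refers to its own list only. The median percentile of fold enrichment was 74.4 and 66.7 for NIPBL, 71.0 and 89.8 for MED1, and 20.4 and 35.5 for SMC1A (replicates 1 and 2). Over the 2 libraries this came to 70.5 ± 5.46 for NIPBL, 80.4 ± 13.3 for MED1 and 28.0 ± 10.7 for SMC1A (SD, n = 2 each). Both SMC1A libraries lay below all 4 NIPBL and MED1 libraries. Of the 4412 regions, 1853 and 1504 held a NIPBL peak from the strongest 20% of its list, and 1648 and 3337 a MED1 peak from the strongest 20%. Only 243 and 305 held such an SMC1A peak, which is 5.51% and 6.91%. At the other end, the highest SMC1A peak was from the weakest 20% of its list in 2138 regions (48.5%) for replicate 1. For replicate 2 this was so in 983 (22.3%), close to the 20% that a list has there by definition. Regions in replicate 2 fell mostly in the next 2 classes up, with 36.7% and 27.5%. The highest peak of a region came from the weakest 20% in 386 and 553 regions for NIPBL and in 405 and 12 for MED1.

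**Figure D1:**
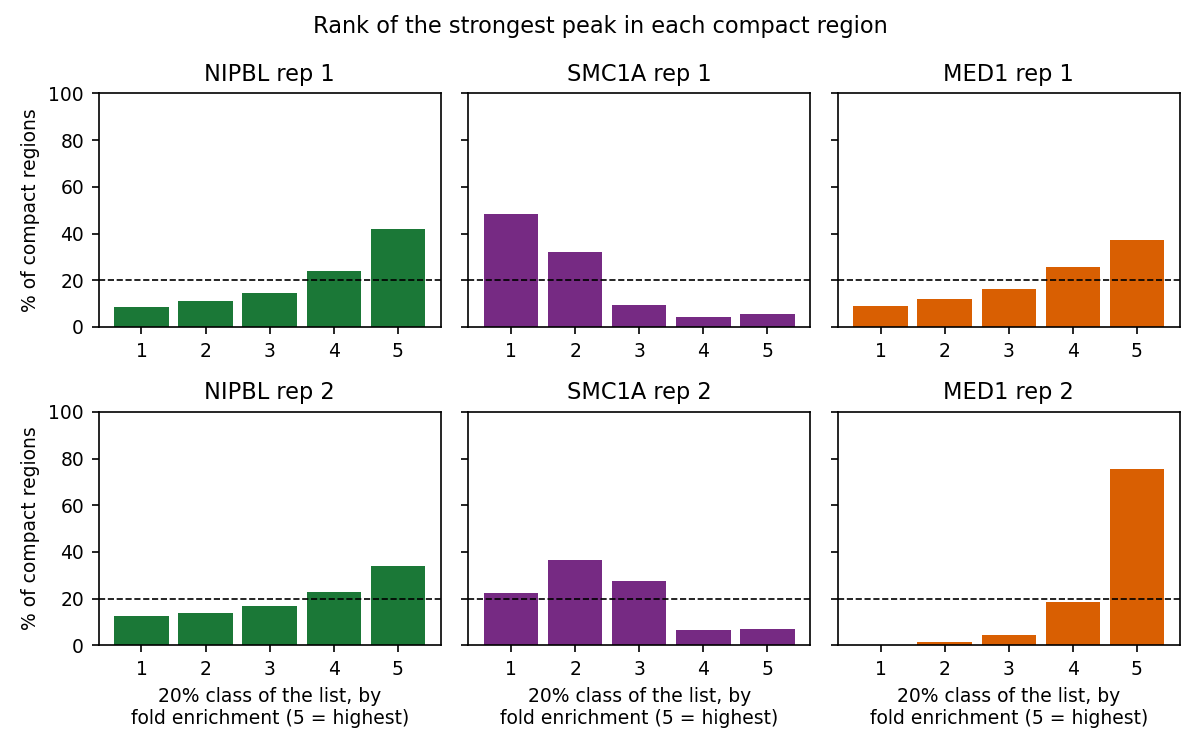
Share of the 4412 compact regions (y axis, percent) whose peak of highest fold enrichment falls in each 20% class of the library's own list (x axis, 1 lowest to 5 highest), 1 panel per library; the dashed line marks 20%. NIPBL and MED1 bars are highest in class 5, at 42.0% and 34.1% for NIPBL and 37.4% and 75.6% for MED1, while SMC1A class 5 holds 5.51% and 6.91%.

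Seen from the lists, compact regions took up a large part of the strong NIPBL and MED1 peaks. They held 23.6% and 32.0% of all NIPBL peaks but 43.7% and 49.9% of the strongest 20%. They held 27.7% and 10.5% of all MED1 peaks and 46.2% and 37.4% of the strongest 20%. For SMC1A the order was the opposite, with 8.98% and 7.55% of all peaks in compact regions, 23.6% and 10.9% of the weakest 20%, and 2.16% and 2.24% of the strongest 20%. The SMC1A lists are also the longest, at 56510 and 68228 peaks. A low rank in them is thus a rank among more sites than in the other lists. The NIPBL lists held 21422 and 15357 peaks and the MED1 lists 18131 and 45046. Every compact region also needed a peak in the shorter MED1 list. Whether this bears on the high ranks of MED1 replicate 2 was not tested.

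The fragment depth behind these values can be worked out, because fold enrichment and p-value together fix how many fragments covered a summit. The median was 39 and 33 fragments for NIPBL, 29 and 35 for SMC1A and 39 and 65 for MED1. Counting error alone gives a median summit of 29 fragments an exact 95% Poisson interval of 19.4 to 41.6, and one of 65 fragments an interval of 50.2 to 82.8. The lowest of these summits had 11 to 15 fragments, depending on the library, which is the lowest value seen and not a measured detection limit. The libraries were not equally deep, and fragment numbers are given here as the precision of each value, not as a comparison between libraries.

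Strength in 1 protein went with strength in another to very different degrees. Across the 4412 regions the Spearman correlation of fold enrichment between replicates was 0.698 for NIPBL, 0.745 for SMC1A and 0.786 for MED1. Between NIPBL and MED1 libraries it was 0.384 to 0.459. Between NIPBL and SMC1A it was 0.149 to 0.226, and between SMC1A and MED1 0.170 to 0.216. The regions share libraries, the same control and neighbouring DNA, so these are descriptions without a p-value. When the regions were split by NIPBL percentile into 4 classes of 1103, median MED1 fold enrichment went from 3.83 in the lowest class to 5.86 in the highest in replicate 1, and from 7.85 to 12.6 in replicate 2. SMC1A went from 4.05 to 4.91 and from 4.80 to 6.15. When they were split by SMC1A percentile, NIPBL replicate 1 was 4.31, 4.69, 5.12 and 4.95 from the lowest to the highest class, so the class with most SMC1A did not have the highest NIPBL in that library. In NIPBL replicate 2 these medians were 4.13, 4.53, 4.89 and 4.97.

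**Figure D2:**
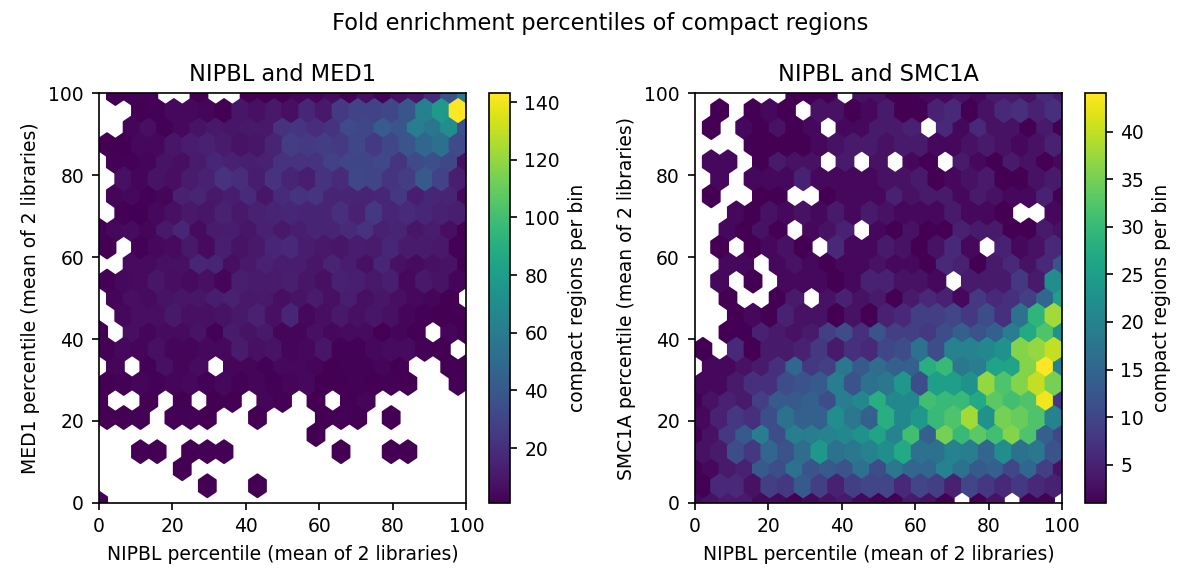
Percentile of NIPBL fold enrichment (x axis) against that of MED1 (left) or SMC1A (right) in the 4412 compact regions, each the mean of 2 libraries; colour gives the number of regions per hexagon. Regions gather at high NIPBL with high MED1, whereas in the right panel most lie at low SMC1A percentiles at every level of NIPBL.

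Regions strong in everything were rare. Both NIPBL and both MED1 peaks were in the strongest 20% of their lists in 770 regions (17.5%), and in 21 of these (0.476% of all compact regions) both SMC1A peaks were as well. By single protein, both replicates were in the strongest 20% in 1190 regions for NIPBL, 1605 for MED1 and 240 for SMC1A. The 240 SMC1A-strong regions were picked after the ranks were seen. Their median SMC1A fold enrichment was 24.9 and 28.3, and their NIPBL, at 4.61 and 4.81, lay close to the 4.75 and 4.58 of the other 4172 regions. Their MED1, at 4.06 and 8.40, lay below the 4.57 and 9.53 of the others in both libraries. None of these differences was tested.

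Among regions that hold NIPBL, compact regions stood between the broad regions and those that lack a partner in their NIPBL and MED1 ranks. Their SMC1A ranks were the lowest of the classes with SMC1A. The 883 broad regions had a median width of 2966 bp and higher median percentiles in all 6 libraries, at 77.9 and 73.3 for NIPBL, 29.9 and 44.3 for SMC1A and 92.9 and 97.5 for MED1. They also held more peaks, with a mean of 2.48 and 2.16 NIPBL peaks per region against 1.15 and 1.11 in compact ones. A wider region has more peaks to take the highest from. The 827 regions with NIPBL and MED1 in all 4 lists and no SMC1A peak were weaker than compact regions in every library they share, at 58.0 and 50.5 for NIPBL and 50.1 and 79.4 for MED1. The 449 regions with NIPBL and SMC1A in all 4 lists and no MED1 peak were of another make. Their SMC1A percentiles were 89.8 and 90.8 and their median SMC1A fold enrichment 23.5 and 25.7, while NIPBL, at 68.2 and 56.3, was below that of compact regions. All 4 classes are defined by the same lists, so their differences were not tested.

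**Figure D3:**
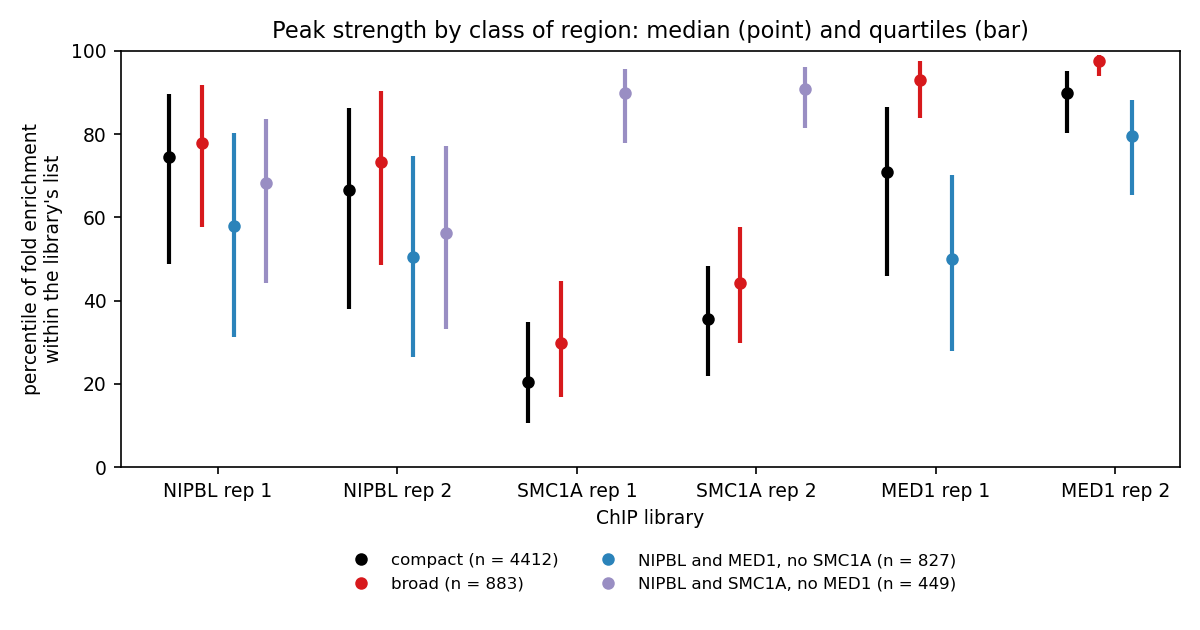
Percentile of fold enrichment within the list (y axis) of the highest peak per region in each ChIP library (x axis), with the median as a point and the quartiles as a bar, for compact regions and 3 other classes of merged region. Compact and broad regions share low SMC1A percentiles, with medians from 20.4 to 44.3, whereas regions with NIPBL and SMC1A but no MED1 peak have medians of 89.8 and 90.8.

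Where the summits lay was not part of the choice, which asked only for a chain of overlaps and for MED1 peaks under the width limit. NIPBL summits lay nearer to MED1 summits than to SMC1A summits. The median distance from NIPBL to MED1 was 47 and 44 bp for NIPBL replicate 1 (to MED1 replicates 1 and 2) and 46 and 40 bp for NIPBL replicate 2. From NIPBL to SMC1A it was 75 and 71 bp for NIPBL replicate 1 (to SMC1A replicates 1 and 2) and 71 and 67 bp for NIPBL replicate 2. The 4 NIPBL to SMC1A distances did not overlap the 4 NIPBL to MED1 distances.

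The distance between replicates of 1 protein sets the scale on which these can be read. It was 44 bp for NIPBL, 45 bp for SMC1A and 35 bp for MED1. NIPBL and MED1 summits were thus about as far apart as the NIPBL summits of the 2 replicates. These distances carry no sign, and a shift between those proteins was not tested. SMC1A to MED1 distances, from 52 to 64 bp, lay between the other pairs. Averaged over both NIPBL libraries, the distance was 44.3 ± 3.18 bp to the MED1 libraries and 71.0 ± 2.83 bp to the SMC1A libraries (SD, n = 2 each). The difference was 26.8 bp. An exact permutation test over the 4 libraries, two-sided, gave p = 0.33, the smallest value that n = 2 per protein allows. In each of the 15 settings tried it kept its sign, from 19.3 to 44.3 bp.

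**Figure D4:**
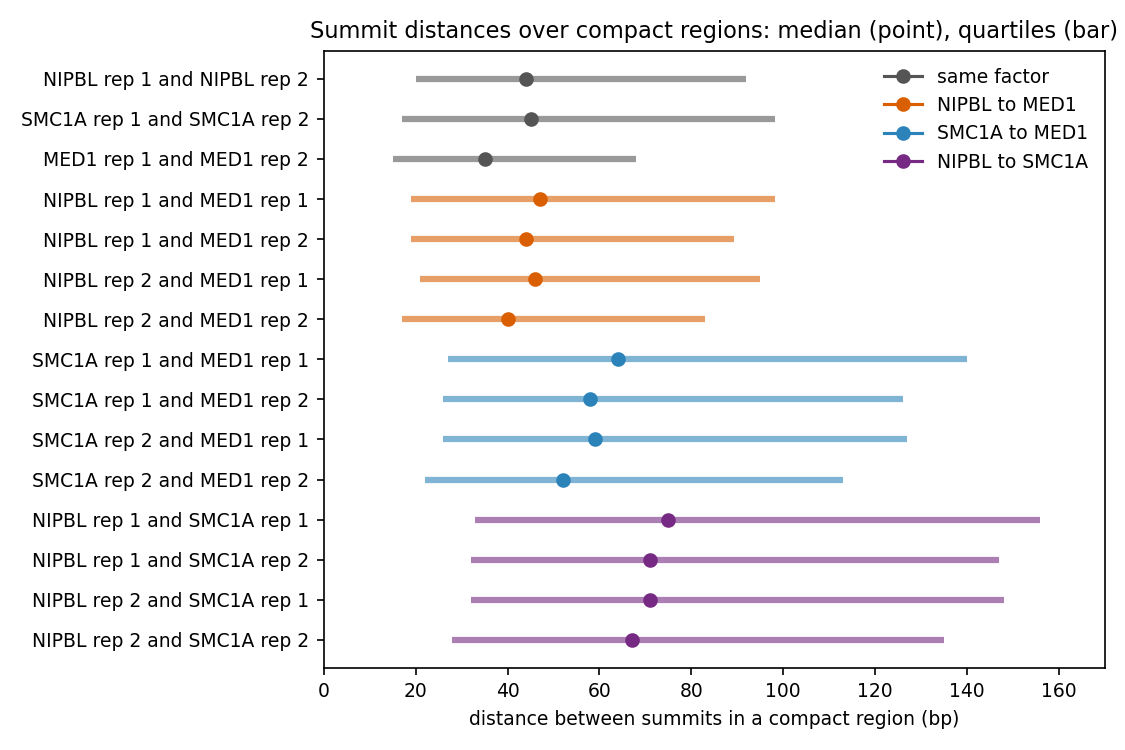
Distance between the summits of 2 libraries in the same compact region (x axis, bp) for all 15 pairs of libraries (y axis), with the median over 4412 regions as a point and the quartiles as a bar. Pairs of NIPBL with MED1 have medians of 40 to 47 bp, near the 35 to 45 bp of replicate pairs, and pairs of NIPBL with SMC1A have 67 to 75 bp.

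Region by region, the mean NIPBL summit was nearer to MED1 in 2845 regions (64.5%) and nearer to SMC1A in 1544 (35%), with 23 ties. Where replicates have their highest peaks in different places, such a mean lies between them. In the 2945 regions with 1 peak of each list, 63.9% were nearer to MED1. MED1 was the protein in the middle in 1881 regions (42.6%), NIPBL in 1477 (33.5%) and SMC1A in 1016 (23%). The 6 summits together spanned a median of 149.5 bp, with quartiles of 94 and 297 bp. They fell within 100 bp in 1252 regions (28.4%) and within 200 bp in 2765 (62.7%). In the 2945 regions with 1 peak of each list the median span was 129 bp. In the 1467 others it was 403 bp, since the highest peaks of different lists can then be different peaks.

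Summits lay closer together in regions of high mean rank, but not in those of high SMC1A. With the regions split into 4 classes of 1103 by mean percentile over all libraries, the median span was 194 bp in the lowest class and 124 bp in the highest. Split by NIPBL alone it went from 203 to 114 bp and by MED1 alone from 180.0 to 125 bp. Split by SMC1A alone it was 162, 149, 132 and 163 bp, so the class with most SMC1A was no tighter than that with least. Over the 4 classes by mean percentile, the distance between NIPBL replicates went from 63 to 32 bp. That from NIPBL to MED1 went from 57.5 to 34.3 bp and that from NIPBL to SMC1A from 81.0 to 63.3 bp. The share of regions in which NIPBL was nearer to MED1 went from 59.7% to 69.5%. The precision of summits and their distances thus moved together, and how much of the closeness comes from precision was not tested. In the highest class the replicate distances were 32 bp for NIPBL, 31 bp for SMC1A and 27 bp for MED1. The NIPBL to SMC1A and NIPBL to MED1 distances there, 63.3 and 34.3 bp, were both above these.

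In the 240 regions with strong SMC1A, the SMC1A position was well fixed and the summits were spread wider. Over all 240 the order of the proteins was much the same as elsewhere, but not in the 117 with 1 peak of each list, described below. MED1 was in the middle in 44.2% of the 240 and NIPBL in 33.75%, against 42.5% and 33.5% of the other 4172. NIPBL was nearer to MED1 in 62.9%, against 64.6%. SMC1A replicates were 10 bp apart in the 240, against 50 bp in the other 4172 regions, while the span was 214.5 bp against 148 bp. NIPBL to SMC1A was nevertheless 99.1 bp, and NIPBL to MED1 was 78.0 bp, against 68.5 and 42.8 bp in the others. In 32 of the 240 (13.3%) the mean SMC1A summit lay over 500 bp from the mean NIPBL summit, against 192 of 4172 (4.60%). Most of the 32 held several peaks of a list, and with 1 peak of each list the count was 2 of 117. In the 117 of them with 1 peak of each list, MED1 lay nearer to SMC1A, at 49.5 bp, than to NIPBL, at 75.5 bp. MED1 was in the middle in 61 of these 117 (52.1%) and NIPBL in 22 (18.8%). In 600 regions with weak SMC1A and 1 peak of each list (both peaks in the weakest 20%), the corresponding distances were 52.4 and 40.5 bp. MED1 was then in the middle in 246 (41.0%) and NIPBL in 194 (32.3%). NIPBL was nearer to MED1 than to SMC1A in 62.4% of the 117 and 63.2% of the 600. The difference between these groups was not tested.

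The strongest compact regions included some with close summits and some with summits far apart. The 12 with the highest mean percentile came from 8 chromosomes, with widths of 764 to 2674 bp. Their summits spanned over 1000 bp in 5 and at most 216 bp in 7. The first, chr20:61639870-61642189, had fold enrichments of 9.64 and 11.9 for NIPBL, 48.0 and 47.2 for SMC1A and 8.41 and 29.1 for MED1. Its highest NIPBL and MED1 summits lay 58.5 bp apart and its highest SMC1A summits 1248 bp away from NIPBL. Both places held the other proteins as well. NIPBL had weaker peaks of 4.76 and 3.36 and MED1 replicate 1 one of 3.29 near the strong SMC1A summits, and SMC1A had weaker peaks of 5.92 and 8.30 near the strong NIPBL summits. A single MED1 replicate 2 peak of 1762 bp covered both. The second, chr1:235246197-235247470, had NIPBL of 9.16 and 9.22, SMC1A of 30.3 and 35.9 and MED1 of 6.50 and 19.3. Here all 6 summits fell within 112 bp. The third, chr2:68668392-68669255, was tighter, with a span of 63 bp, NIPBL of 8.26 and 6.70, SMC1A of 28.5 and 32.9 and MED1 of 8.11 and 17.7. The fourth, chr4:40311020-40311982, had mean NIPBL and MED1 summits 0.5 bp apart and SMC1A 89.0 bp from NIPBL. Regions 6, 7 and 10, on chromosomes 13, 16 and 2, resembled the first, with the highest SMC1A summits 1016, 1303.5 and 1031 bp from NIPBL. Each of them had weaker NIPBL peaks near the strong SMC1A summits, with fold enrichments of 5.31 and 5.81 in region 6, 4.67 and 3.92 in region 7 and 3.96 and 3.31 in region 10. Such a distance thus says which of 2 shared places was higher for each protein, not that the proteins were apart. In region 8, on chromosome 5, the highest NIPBL summits of the replicates lay in different places, at 115912936 in replicate 1 and 115912074 in replicate 2. A distance from their mean thus describes neither. The same held for MED1 in region 7, with highest summits at 14396824 in replicate 1 and 14396056 in replicate 2.

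**Figure D5:**
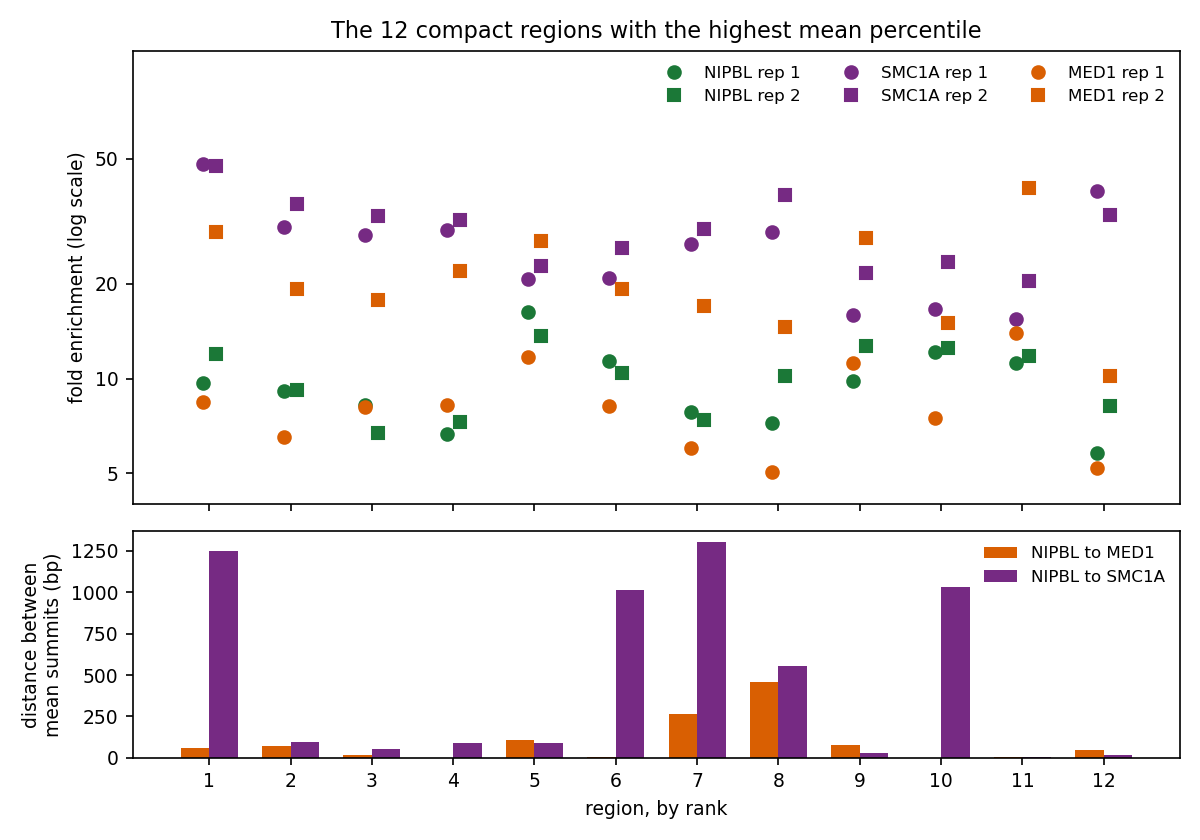
Fold enrichment in each of the 6 libraries (upper panel, log axis) and distance between the mean summits of NIPBL and of MED1 or SMC1A (lower panel, bp) for the 12 compact regions with the highest mean percentile (x axis, by rank). SMC1A summits (highest peak of each list) lie over 1000 bp from NIPBL in regions 1, 6, 7 and 10. The NIPBL replicates in region 8 and the MED1 replicates in region 7 had their highest peaks in different places.

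Regions that led for a single protein, ranked by the mean percentile over its 2 libraries, differed in their partners. The highest SMC1A was found at chr20:36012790-36013580, with fold enrichments of 58.8 and 64.4, and NIPBL there was 5.03 and 5.46. The next 3 by SMC1A, on chromosomes 15, 22 and 9, had SMC1A of 43.8 to 60.1 and NIPBL of 4.63 to 9.21. The highest MED1 lay at chr1:28974325-28975919, with 34.0 and 49.2. NIPBL was 4.75 and 3.81 there and SMC1A 4.82 and 5.02, which is the 32.2 percentile of the SMC1A list at most. The third by MED1, chr22:43010197-43012017, had MED1 of 22.6 and 36.3 but NIPBL of 2.82 and 3.08 and SMC1A of 3.31 and 2.74, at the 11.2 percentile or lower in all 4 lists. The second by MED1, chr6:26103696-26105398, had NIPBL of 10.6 and 12 together with SMC1A of 3.67 and 4.14. Very high MED1 was thus found both with strong and with weak NIPBL.

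By the mean percentile of both libraries, the highest NIPBL lay at chr13:114832614-114834036, at 21.5 and 18.9, with MED1 of 10.5 and 27.1 and SMC1A of 5.08 and 9.39. Its 6 summits fell within 25 bp. The next, chr3:124859434-124861324, had the highest value in replicate 1, with NIPBL of 24.0 and 14.8, SMC1A of 10.1 and 11.2, MED1 of 16.1 and 27.6 and a span of 84 bp. The third, chrX:130844892-130845655, was also the fifth over all libraries, with NIPBL of 16.3 and 13.6, SMC1A of 20.8 and 22.8 and MED1 of 11.7 and 27.4. The fourth, chr14:94425359-94426675, had NIPBL of 14.6 and 14.9, MED1 of 14.4 and 32.8 and a span of 64 bp. All 4 had MED1 at the 98.0 percentile or higher in both lists, while their SMC1A ran from the 28.3 to the 86.9 percentile.

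The tightest and the loosest regions were sought among those with 1 peak of each list. At chrX:115004397-115004764 all 6 summits lay within 3 bp, with modest fold enrichments of 4.86 and 4.61 for NIPBL, 4.21 and 4.11 for SMC1A and 4.12 and 7.66 for MED1. At chr2:225531490-225532223 they lay within 14 bp, and at chr3:72225494-72226167 within 17 bp, where NIPBL was 8.25 and 9.34. The loosest, chr6:251768-253405, spanned 1102 bp within a single MED1 peak of 1638 bp. Its outermost summits were those of SMC1A replicates 1 and 2, at 253237 and 252135, from peaks at the 21.2 and 11.6 percentiles. The NIPBL and MED1 summits lay between 252165 and 252253, so the span reflects SMC1A replicates that disagreed. Its NIPBL replicate 2 peak was at the 7.48 percentile. At chr11:68038521-68040170, which spanned 981 bp, the mean NIPBL and MED1 summits were 4 bp apart and SMC1A lay 912.5 bp from NIPBL with fold enrichments of 12.8 and 17.1.

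Compact regions were spread over the genome and often had neighbours of their own kind. Their share among merged regions ran from 3.79% on chromosome 22 to 5.97% on chromosome 21. The median gap to the nearest other compact region was 20983.5 bp, and 1622 regions (36.8%) had one within 10000 bp. A broad region lay within that distance of 397 (9.0%). A region with only SMC1A peaks, from the strongest 20% of both lists, lay within it of 118 (2.67%), and there were 7753 of these in all. Any other merged region lay within it of 3953 (89.6%). These shares depend on how many regions of each kind exist and were not tested. Joined at gaps of up to 10000 bp, 2790 compact regions stood alone and 1022 stood in pairs. The longest run, of 13 regions, covered 94629 bp at chrX:130862217-130956845 and held 1 broad region. Its members had NIPBL fold enrichments of 3.18 to 11.2 and 4.27 to 11.8, SMC1A of 5.63 to 15.5 and 6.09 to 20.5 and MED1 of 4.51 to 14 and 12 to 40.4. The third by NIPBL lay upstream of it on the same chromosome. The next longest run held 8 regions at chr2:99076129-99104949.

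The number of compact regions depended on how long the lists are. With only the 15357 best peaks of each list, 273 regions remained, which removes most weak SMC1A peaks by construction. With a MED1 limit of 1000 bp there were 2759.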

How the data were processed

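NIPBL, SMC1A and MED1 were each profiled by ChIP-seq in 2 libraries of GM12878 cells. Per the labels, fixation was in 1% formaldehyde (10 min), stopped with 125 mM glycine (5 min). MACS2 2.1.0, BWA 0.7.12, Trimmomatic 0.33 and hg19 are listed, without settings, per the submitters' processing notes. Peaks were found for each library apart, with both whole cell extracts together as control, per the labels, so all lists share 1 control. Fold enrichment was deposited as a linear ratio for the summit, beside −log10 p and −log10 q. The deposited score was within 1 of 10 times −log10 q in 99.98% of NIPBL replicate 1 peaks and 100% of those of the other lists. The deposited summit offset, in bp from the peak start, gave summit positions.

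Peaks on chromosomes 1 to 22 and X were merged where they overlapped by at least 1 bp. No peaks of a list overlapped each other. Fragment pileups at summits were solved from fold enrichment and −log10 p, taking the fold as (pileup + 1) / (control + 1) and p as a Poisson upper tail, for 100% of peaks. On simulated peaks, the merging found 1200 of 1200 planted regions and the pileup step recovered 100% of 3000 pileups, which covers the algebra only. Distances use the peak of highest fold enrichment per list. Named regions follow a written rule: the 12 highest over all libraries, the 4 highest per protein by mean percentile over its libraries, the 4 tightest and 4 loosest, and 3 on each side of the width limit. Members, classes and rules were chosen with earlier results of these data known. Computed with Python 3.11.15, pandas 2.3.3, numpy 2.4.6 and scipy 1.17.1.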

Additional observations from a re-analysis of the deposited data

Results flagged for a closer look

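Peaks on sequences outside chromosomes 1 to 22, X and Y were left out of the report. The 227 peaks there merged into 85 regions, of which 6 held all 6 lists, and 4 met the rule for a compact region. These 4 were 4.71% of the merged regions there, a share close to the 4.75% on the chromosomes the report uses. They lay on the mitochondrial genome (1), on a contig of chromosome 17 of unknown place (1) and on an unplaced contig (2). Whether their peaks reflect binding was not tested. The whole cell extracts have no peak list, so no background count can be set beside them.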

How the results depend on the processing

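Of 70 recalculations, 13 moved a count by over 1.5 times or a median by over 1 SD between replicates. The distance difference was judged by its sign and p-value instead, and no other result could change sign. The distance difference kept its sign in all 15 of its settings, and its p-value could not fall below 0.33 (0.5 with the replicate block), so that p says nothing of stability. Leaving out each library in turn gave 4574 to 5660 compact regions, a distance difference of 24.6 to 29.3 bp, a median span of 126 to 146 bp and a median width of 778 (without MED1 replicate 2) to 931 bp. Equal list lengths gave 273 regions, a span of 224 bp and a width of 1269 bp. A MED1 limit of 1000 bp gave 2759 regions, a span of 133 bp and a width of 752 bp. Peaks cut to 100 bp on each side of summits gave a span of 126 bp and a width of 327 bp, and regions with 1 peak of each list a span of 129 bp. Median percentiles moved by less than the SD between replicates in each setting tried for them. For either replicate alone this had to be so, since each of 2 values lies within 1 SD of their mean. Equal list lengths were not tried for percentiles. With a replicate block (same-numbered libraries only) the distance difference was 27.5 bp (exact permutation p = 0.5, the smallest it can give). The numbers are not stated to pair libraries, and log2 differences between replicates correlated at 0.0478 to 0.0562 between proteins. Depth limits the precision of single summits, the lowest of which had 11 fragments, in SMC1A replicate 1.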
